A study of Mus musculus with 30 samples.

Results

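The transcriptional response to insulin was measured in Control AML12 cells, a line of mouse hepatocytes derived from a transgenic mouse that carries human transforming growth factor alpha. The comparison used 7 RNA-seq libraries of the 30 in the series: 3 from Control cells stimulated with 100 nM insulin for 6 h and 4 from Control cells that received no insulin, here called basal. The libraries were chosen by their labels (genotype Control, treatment Insulin or None), and all genes were examined. Control cells had no siRNA against FoxK1 or FoxK2. Per the study they were transfected with NS siRNA, the study's control siRNA, and all cells were held overnight in medium with BSA in place of serum. The labels give the basal libraries a treatment time of 0 while the protocol describes a mock treatment for 6 h, so what a basal culture experienced during the 6 h is not settled by the sources used here. The other 23 libraries came from cells with siRNA against FoxK1 (FoxK1 KD), FoxK2 (FoxK2 KD) or both (DKD), at basal and with the same insulin treatment. DKD cells (4 basal and 3 insulin libraries) are the comparator described at most length. The labels number the replicates but do not say that they were separate cultures, so p-values measure the spread between these libraries, which may be technical.

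Insulin binds the insulin receptor, a tyrosine kinase that phosphorylates the substrates Irs1 and Irs2 and thereby activates phosphoinositide 3-kinase and Akt. Akt phosphorylates FoxO factors, which then leave the nucleus and no longer activate genes of fasting, and it relieves inhibition of mTORC1, which promotes protein synthesis, lipid synthesis and growth. In liver, insulin is known to lower genes of glucose output and to raise genes of glycolysis and of fatty acid and sterol synthesis. FoxK1 and FoxK2 are forkhead factors related to FoxO that the study examined as further targets of insulin action.

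The 4 basal libraries held 3809555 to 5668270 counts and the 3 insulin libraries 3140647 to 3879649, with 14419 to 15787 and 15069 to 15296 genes detected. Along the first principal component of log2 levels (41.0% of the variance) the basal libraries sat at -36.5 to -9.1 and the insulin libraries at 20 to 26.5. Basal library 1 stood apart from the other 3 basal libraries: its counts differed from theirs with a chi-square of 14.7 to 20.6 per degree of freedom, against 2.52 to 4.64 among the other 3. No 2 libraries agreed within sampling noise. Hepatocyte markers were present in part. Of 18 such genes 10 passed the filter on low counts, among them Alb, Ttr and Hnf4a, whereas Apoa1, Ahsg, Cyp2e1 and Cps1 had 7 to 18 counts in the 7 libraries together. Markers of cholangiocytes and progenitors were present as well. Of 7 such genes 5 passed the filter, and the 7 summed to 1690 to 2150 CPM at basal and 2060 to 2590 CPM with insulin. The 18 hepatocyte genes summed to 2150 to 2700 CPM at basal and 2520 to 2790 CPM with insulin. Fibroblast and endothelial markers were close to absent. The 10 fibroblast and stellate genes summed to at most 0.536 CPM in a basal library and 1.26 CPM in an insulin library, and the 7 endothelial genes to at most 0.25 and 0.629 CPM. The 10 macrophage and leukocyte markers summed to 106 to 145 CPM at basal and 101 to 135 CPM with insulin, nearly all of it Cd14 (94.8 to 137 CPM), with no count for Adgre1, Clec4f, Cd3e or Itgam. Csf1r, the receptor for macrophage colony-stimulating factor, was called down (-1.70, adjusted p = 6.4e-06); of the 10 markers only Csf1r and Cd14 passed the filter.

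Insulin changed genes in both directions in similar number. Of 11368 genes that passed the filter, 1405 (12.4%) were higher and 1485 (13.1%) were lower with insulin at an adjusted p below 0.05 (edgeR's quasi-likelihood test, Benjamini-Hochberg adjustment over all tested genes); these genes are called up or called down below. Most changes were small. The median absolute log2 fold change of the called genes was 0.50, and 532 called up and 527 called down exceeded a fold of 1.5. In 2240 of the 2890 called genes the 3 insulin libraries did not overlap the 4 basal libraries. Calls and separation come from the same libraries, so the separation is not independent support for the calls. The share over all tested genes is not given here. When the 7 Control libraries were fitted alone, in place of all 30, 577 genes were called up and 508 down. The filter and the scaling were redone along with the spread, and 10826 genes were tested. Later counts under the Control spread, or from the 7 Control libraries alone, come from this refit. The numbers of tested list members given below are those of the main fit. Levels are given as CPM, counts scaled to normalised library size, fold changes on the log2 scale as insulin over basal with the standard error (SE), and group values as mean ± SD. In bulk libraries, a change in the share of cells that express a gene and a change in the RNA per cell cannot be told apart.

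Of the FoxK transcripts, Foxk1 fell with insulin. Foxk1 was at 87.6, 83.5, 66.2 and 88.4 CPM in basal libraries 1 to 4 and at 52.2, 57.8 and 49.0 CPM in insulin libraries 1 to 3. All insulin libraries lay below all basal libraries, and the log2 fold change was -0.62 (SE 0.13, adjusted p = 3.7e-04). Foxk2 was at 140.2 ± 8.249 CPM (n = 4) at basal and 162.7 ± 5.661 CPM (n = 3) with insulin, a difference that was not called (0.22, SE 0.09, adjusted p = 0.074); without basal library 1 it was called (0.25, adjusted p = 0.037), as it was with upper-quartile scaling. For reference, Foxk1 in FoxK1 KD basal libraries ranged from 27.4 to 42.0 CPM and Foxk2 in FoxK2 KD basal libraries from 42.9 to 50.6 CPM. Of the FoxO factors, Foxo3 (-0.28, SE 0.07, adjusted p = 0.003) and Foxo4 (-0.72, SE 0.14, adjusted p = 3.2e-04) fell, whereas Foxo1 had a log2 fold change of -0.36 (SE 0.14, adjusted p = 0.062) and was called without basal library 3 (-0.40, adjusted p = 0.05).

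Genes known to be activated by FoxO in fasting fell. Of 26 genes in this list 23 were tested; 12 (52.2%) were called down and 1 (4.35%) was called up, with a median log2 fold change of -0.39 against -0.01 over all tested genes. Fbxo32, the ubiquitin ligase atrogin-1, was at 74.6, 80.3, 75.9 and 90.4 CPM at basal and 20.8, 24.3 and 21.7 CPM with insulin, 3.62-fold lower (adjusted p = 3.0e-14, edgeR). Irs2, which couples the insulin receptor to phosphoinositide 3-kinase, went from 170, 174, 176 and 213 CPM to 55.9, 68.0 and 76.1 CPM, 2.76-fold lower (adjusted p = 1.0e-11). In both genes every insulin library lay far below the lowest basal library. Depp1, a small protein linked to autophagy, fell from 23.8, 9.50, 11.9 and 16.8 CPM to 3.43, 1.26 and 2.83 CPM, the largest change of the list (-2.58, SE 0.34, adjusted p = 7.2e-07). Txnip, an inhibitor of thioredoxin and of glucose uptake, was at 11.9, 9, 8.44 and 11.1 CPM at basal and at 4.22, 2.21 and 2.52 CPM with insulin (-1.72, SE 0.27, adjusted p = 1.1e-05), again without overlap. Sod2, the mitochondrial superoxide dismutase, was the 1 member called up (0.26, SE 0.10, adjusted p = 0.046); it was not called without basal library 1 (0.22, adjusted p = 0.1), and in all the call was lost in 10 of the settings that set no minimum fold. Estimated from the 7 Control libraries alone, 7 members were called down in place of 12.

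The classical liver targets of this group were hardly expressed in AML12 cells. G6pc (glucose-6-phosphatase) had 4 counts and Pck1 (phosphoenolpyruvate carboxykinase) 6 counts in the 7 libraries together. Igfbp1 had none of 27893514 counts, which allows a level of up to 0.108 CPM; this limit covers counting error only. Of the 10 gluconeogenesis genes 6 were tested, among them Pcx, Pck2 and Mdh1, and 0 were called by edgeR, with 0 at an unadjusted p below 0.05 and 0 called by DESeq2. Their log2 fold changes ranged from -0.17 to 0.17, with a median of -0.01. Basal library 1 decided this: without it 2 of the 6 were called up and the median was 0.23. For G6pc, Pck1 and Igfbp1 a change by insulin was not detectable at this depth.

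Promoters were searched for forkhead letters, since FoxO and FoxK factors bind closely related motifs. The forkhead core GTAAACA was found, on either strand, in the promoter of 2 of the 21 tested members with a RefSeq promoter (9.5%) and of 4.1% of all 27025 genes with one, in a window from 250 bases before to 50 bases after the start. The insulin response element letters CAAAACAA were found in 2 of 21 members (9.5%) and in 2.9% of all genes. The stretches below (RefSeq, GRCm38.p6, written 5′ to 3′ on the gene's strand, with the matching letters in capitals) belong to the called members that hold a match before the start.
Txnip, forkhead core, chr3:96557816-96557862, plus strand: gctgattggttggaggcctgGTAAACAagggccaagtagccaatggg
Irs2, insulin response element on the opposite strand, chr8:11008940-11008987, minus strand: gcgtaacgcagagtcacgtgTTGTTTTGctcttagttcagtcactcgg
Ccng2, insulin response element, chr5:93267537-93267572, plus strand: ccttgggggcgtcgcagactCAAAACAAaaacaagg
The matches began 121, 38 and 16 bases before the start. Ccng2, an atypical cyclin that restrains proliferation, was at 439, 294, 287 and 295 CPM at basal and 191, 205 and 219 CPM with insulin (-0.68, SE 0.11, adjusted p = 1.8e-05); basal library 1 was its highest.

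Among 44 tested components of insulin signalling 6 (13.6%) were called up and 6 (13.6%) down, shares close to the 12.4% and 13.1% of all genes, with a median log2 fold change of 0.01. Igf1r, the receptor for insulin-like growth factor 1, was at 151, 140, 152 and 158 CPM at basal and 86.5, 92.3 and 96.2 CPM with insulin (-0.71, SE 0.09, adjusted p = 4.4e-07). Insr, the insulin receptor, fell from 132.7 ± 17.31 CPM to 92.96 ± 5.769 CPM (-0.52, SE 0.11, adjusted p = 4.4e-04), and the adaptor Gab1 fell by 0.72 (SE 0.12). Irs1 went from 20.52 ± 3.199 CPM to 15.69 ± 0.5998 CPM (-0.40, SE 0.15, adjusted p = 0.044); this call was lost under 11 of the alternative settings that set no minimum fold. In each of these 4 genes the groups did not overlap. Trib3, a pseudokinase that binds Akt and is induced by ATF4, was at 11.6, 11.8, 11.7 and 8.39 CPM at basal and at 29.5, 33.2 and 31.8 CPM with insulin, 2.93-fold higher (adjusted p = 4.4e-09). The regulatory subunits of phosphoinositide 3-kinase Pik3r3 (0.79, SE 0.13) and Pik3r1 (0.50, SE 0.09) rose. Igfbp4, which sequesters insulin-like growth factors, fell from 1857, 1216, 1411 and 1121 CPM to 877, 844 and 855 CPM. With the Control spread alone, 3 signalling components were called up and 4 down.

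**Figure D1:**
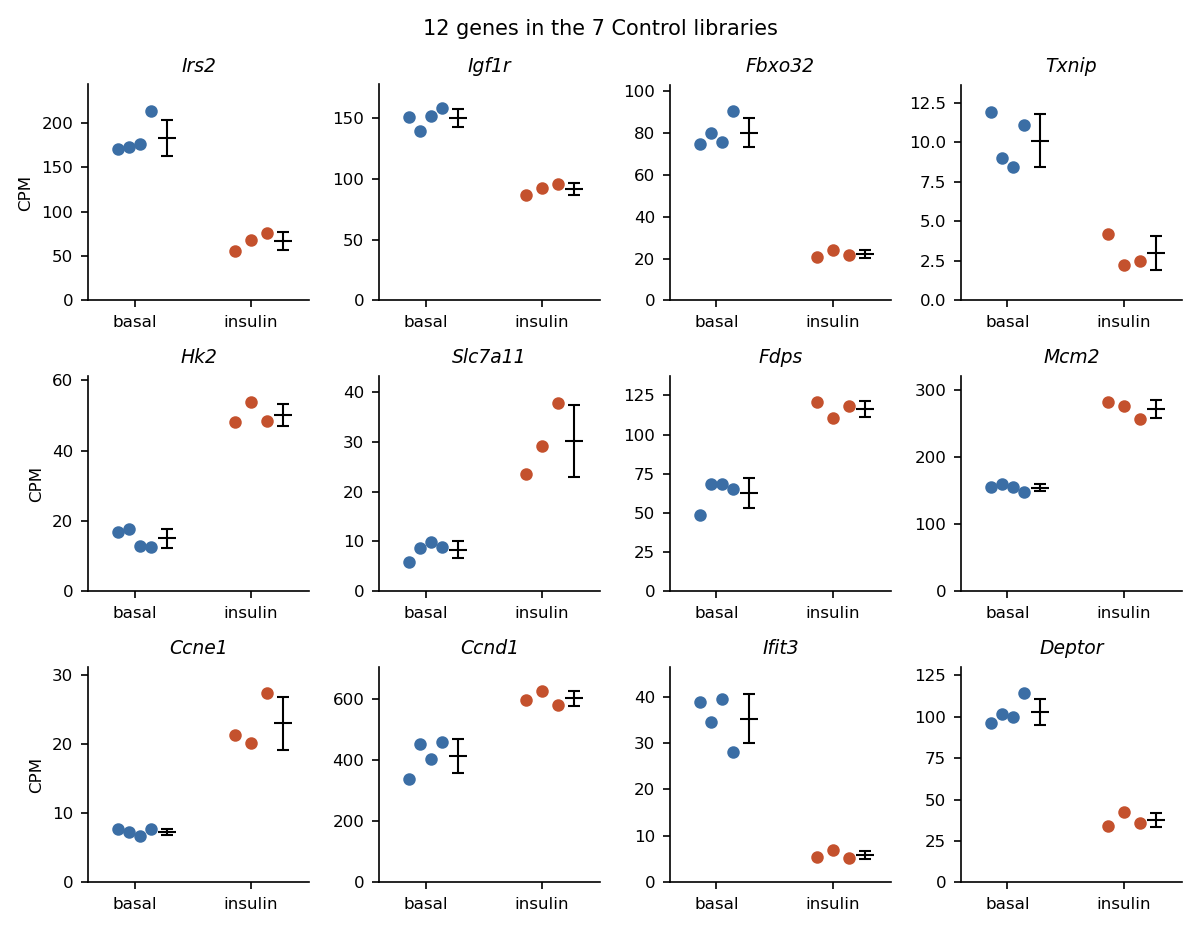
Levels of 12 genes in the 4 basal (blue) and 3 insulin (red) Control libraries in CPM on a linear axis from 0, with the mean and SD of each group as bars. In all 12 panels the insulin libraries lie on one side of the basal libraries, for example Fbxo32 at 20.8 to 24.3 CPM below basal and Hk2 at 48.2 to 53.7 CPM above it.

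Glycolytic genes rose. Of 25 tested genes of glucose uptake and glycolysis 14 (56.0%) were called up and 0 down, or 12 up under the Control spread. The median log2 fold change was 0.37. All 31 genes of the list, tested or not, summed to 9290 to 14900 CPM at basal and 13100 to 15200 CPM with insulin, so the sums overlapped. Hk2, the hexokinase that traps glucose in the cell, was at 17.0, 17.8, 12.9 and 12.7 CPM at basal and at 48.2, 53.7 and 48.4 CPM with insulin, 3.35-fold higher (adjusted p = 6.6e-13). The glucose transporter Slc2a1 went from 142, 110, 116 and 94.1 CPM to 253, 183 and 204 CPM (0.89, SE 0.12), and Pgam1, phosphoglycerate mutase, rose by 0.89 (SE 0.11). Groups were separate in all 3 genes. Of 10 pentose phosphate genes 4 were called up and 0 down (1 up under the Control spread, and 1 without insulin library 1); Pgd went from 384, 246, 273 and 252 CPM to 453, 469 and 409 CPM (0.62, SE 0.10), and G6pdx had a log2 fold change of 0.44 (SE 0.12, adjusted p = 0.0051) with overlapping groups and was not called without insulin library 1 (0.29, adjusted p = 0.11). In glycogen metabolism 5 of 16 tested genes were called up and 1 down (3 and 0 under the Control spread, and 3 up without basal library 4): glycogen synthase Gys1 rose by 0.60 (SE 0.10) and phosphoglucomutase Pgm1 by 0.62 (SE 0.10), and glycogenin Gyg was called down (-0.39, SE 0.13, adjusted p = 0.027), a call lost without basal library 4 (adjusted p = 0.073), insulin library 2 (0.11) or insulin library 3 (0.16).

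Cholesterol synthesis rose along most of the pathway. All 21 enzymes were tested, and 18 (85.7%) were called up and 0 down, or 13 up under the Control spread. Their log2 fold changes had a median of 0.52 and ran from -0.08 to 0.89. The 21 enzymes together went from 6190 to 6980 CPM in the basal libraries to 8710 to 9130 CPM in the insulin libraries. Fdps, which makes farnesyl diphosphate, was at 48.8, 68.3, 68.7 and 65.0 CPM at basal and at 120, 111 and 118 CPM with insulin (0.89, SE 0.11, adjusted p = 2.9e-07). Hsd17b7 (0.75, SE 0.08) and lanosterol synthase Lss (0.61, SE 0.07) rose by similar amounts with separate groups. The 3 enzymes not called were Hmgcs1 (0.18), Ebp (0.17) and Ggps1 (-0.08). Of 10 tested regulators of sterol supply 3 were called up and 1 down. Insig1, the anchor of the SREBP complex, was called at 0.30 (SE 0.11, adjusted p = 0.048) with overlapping groups, and the call was lost in 5 settings that set no minimum fold, among them without basal library 1 (0.19, adjusted p = 0.17). Srebf1 was not called (0.07, SE 0.10, adjusted p = 0.66), but without basal library 1 it was (0.23, adjusted p = 0.025). The sterol regulatory letters TCACNCCAC were found on either strand in the promoter of 1 of the 16 enzymes with a RefSeq promoter, Hmgcs1, and of 1.4% of all genes, so no stretch of a called enzyme is shown.

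Of 29 tested genes of fatty acid and triglyceride synthesis 11 (37.9%) were called up, 0 down and 18 not called (median 0.21), and 7 were called with the spread of the 7 Control libraries alone. Acaca, acetyl-CoA carboxylase, was at 62.7, 101, 102 and 89.1 CPM at basal and at 136, 144 and 160 CPM with insulin (0.72, SE 0.11, adjusted p = 9.5e-06). Acly, which supplies cytosolic acetyl-CoA, rose from 1442, 1248, 1274 and 1238 CPM to 2028, 1721 and 1949 CPM, and the elongase Elovl6 rose by 0.63 (SE 0.10). In fatty acid oxidation 5 of 28 tested genes (17.9%) were called down and 0 up, a share not far from the 13.1% of all genes, and 3 were called down with the Control spread. The medium- and long-chain acyl-CoA dehydrogenases Acadm (-0.57, SE 0.09) and Acadl (-0.59, SE 0.10) and the thioesterase Acot2 (-0.77, SE 0.18) fell.

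Genes of amino acid supply rose. Of 30 genes known as targets of ATF4, a factor induced by amino acid shortage and by mTORC1, 21 (70.0%) were called up and 1 down. Under the Control spread 18 of the 30 genes were called up. The median log2 fold change was 0.66. Their summed level was 3390 to 3910 CPM at basal and 5070 to 5350 CPM with insulin. Slc7a11, the cystine importer, was at 5.95, 8.75, 9.92 and 8.93 CPM at basal and at 23.5, 29.1 and 37.7 CPM with insulin, 3.52-fold higher (adjusted p = 6.8e-10). Aldh18a1, which starts proline synthesis, was at 53.6, 53.5, 59.8 and 53.9 CPM and rose to 144, 128 and 129 CPM (adjusted p = 2.2e-12). The transporters Slc7a5 (1.28, SE 0.10), which imports large neutral amino acids, and Slc7a1 (1.29, SE 0.10), which imports cationic ones, rose about as much, and no library of either group crossed into the other. Stc2, a secreted glycoprotein, was the 1 member called down (-0.37, SE 0.14, adjusted p = 0.05), with overlapping groups, and was not called without basal library 1 (-0.17, adjusted p = 0.31). The letters TGATGNAA of the C/EBP-ATF response element were found in the promoter of 8 of 26 members (30.8%) and of 4.5% of all genes. Of the 8, 6 were called up, beside 70.0% of the whole list.

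Enzymes that charge tRNA and chaperones of the endoplasmic reticulum rose. Of 21 cytosolic tRNA synthetases 14 (66.7%) were called up and 1 down (median 0.40), or 10 up with the Control spread. Cars went from 156, 183, 168 and 136 CPM to 316, 366 and 340 CPM (1.08, SE 0.09), and Aars rose by 0.96 (SE 0.08). Qars, the glutamine enzyme, fell by 0.49 (SE 0.11, adjusted p = 7.2e-04), and without basal library 1 the value was -0.31 (adjusted p = 0.0034). Of 29 tested chaperones and unfolded-protein genes 16 (55.2%) were called up and 2 down (median 0.38), or 10 up with the Control spread. Hspa5 (BiP), the main chaperone of the endoplasmic reticulum, was at 459, 464, 460 and 423 CPM at basal and at 866, 806 and 803 CPM with insulin (adjusted p = 1.0e-11), and Hyou1 rose 2.10-fold. Ppp1r15a (Gadd34), which restores translation after stress, was called down (-0.42, SE 0.13, adjusted p = 0.016), a call lost without insulin library 1 (adjusted p = 0.094) or 3 (0.087).

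Ribosome assembly and ribosomal proteins did not move as one. Of 45 ribosome biogenesis genes 13 (28.9%) were called up and 4 (8.89%) down, with 8 called up under the Control spread. Rrp12, needed for export of ribosomal subunits, was at 93.8, 110, 97.0 and 89.3 CPM at basal and at 185, 228 and 212 CPM with insulin (1.1, SE 0.08, adjusted p = 3.3e-12). The abundant nucleolar proteins went down: Npm1 from 1262, 1091, 1218 and 1157 CPM to 612, 592 and 615 CPM (-0.96, SE 0.09) and Ncl by 0.49 (SE 0.10). Of 76 tested cytosolic ribosomal proteins 15 (19.7%) were called down and 1 up, with a median of -0.18, and 5 were called down under the Control spread and 6 without insulin library 2. Without insulin library 3 the median was -0.11. Rpl3 fell by 0.74 (SE 0.12) and Rps12 by 0.99 (SE 0.15). Many of these genes have near-identical processed pseudogenes, and how the counting assigned reads that match both is not given in the sources used here. The letters CACGTG of an E-box lay in the promoter of 10 of 40 biogenesis genes (25%), of 5 of 24 glycolytic genes (20.8%) and of 8.1% of all genes.

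**Figure D2:**
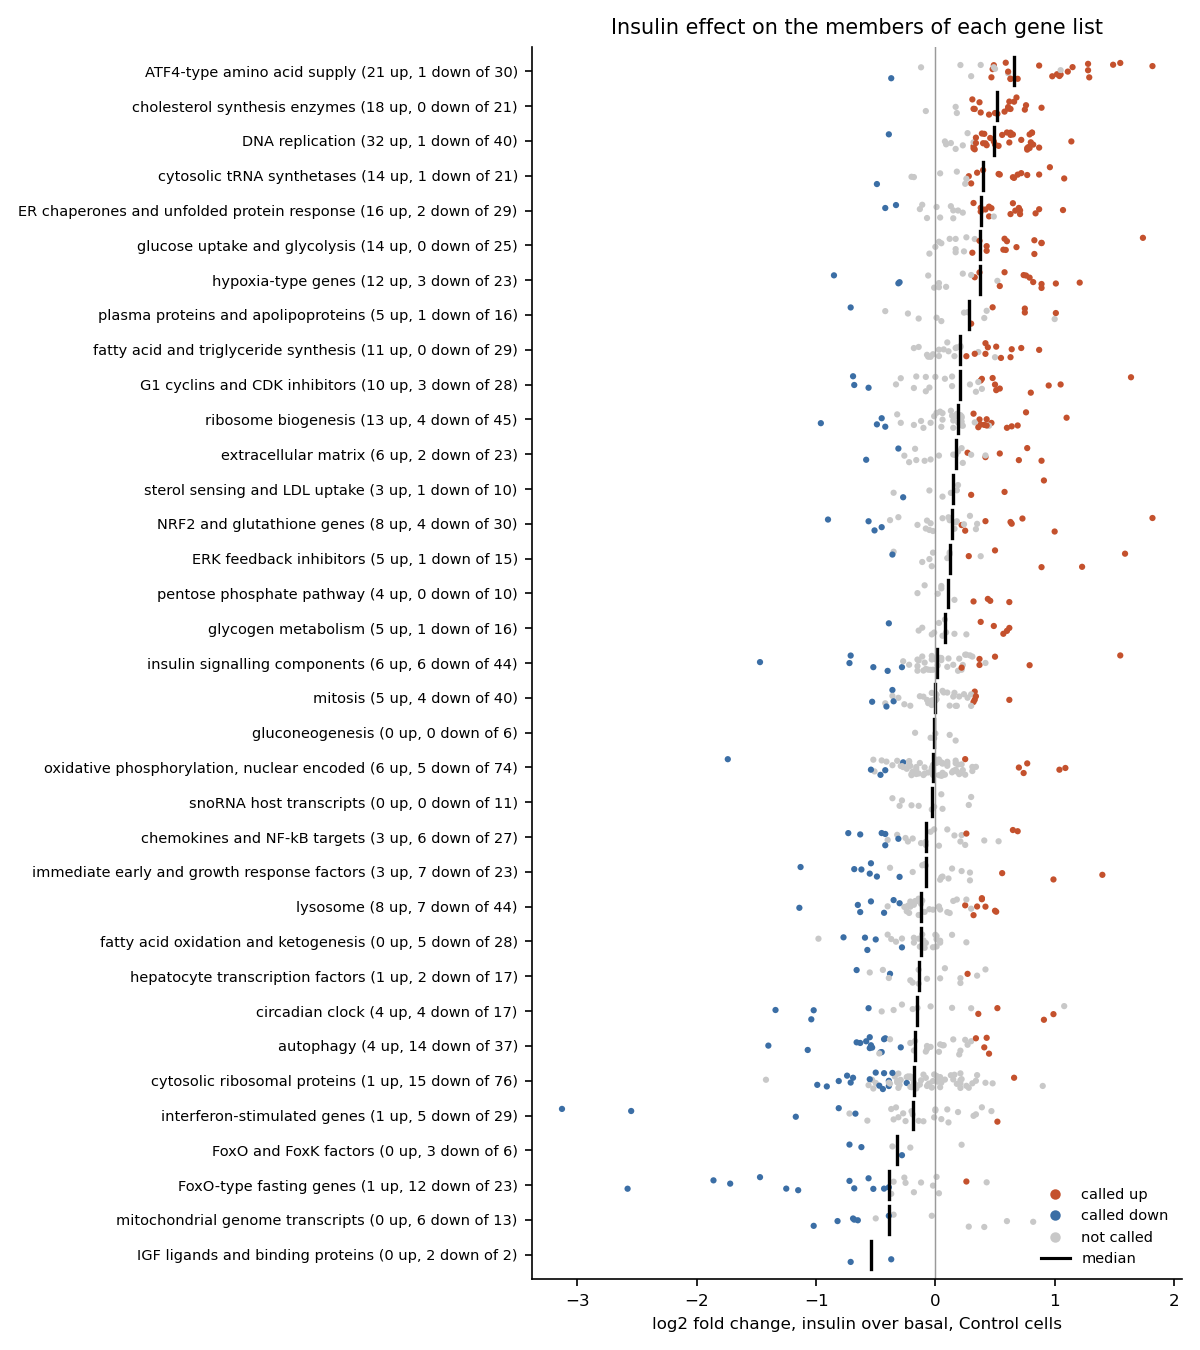
Log2 fold change (insulin over basal, Control cells) of every tested member of each gene list, ordered by median (black bar), with members called up in red, called down in blue and not called in grey. The medians run from -0.54 for the 2 tested genes of IGF ligands and binding proteins to 0.66 for ATF4-type amino acid supply.

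DNA replication genes rose. Of 40 genes 32 (80%) were called up and 1 down, with a median of 0.49; under the Control spread 17 were called up. Helicase subunit Mcm2 was at 156, 160, 156 and 148 CPM at basal and at 283, 278 and 257 CPM with insulin (0.81, SE 0.08, adjusted p = 2.9e-09). Mcm3 and Mcm5, of the same ring, each rose by 0.77 (SE 0.09). The groups were separate for all 3. Cdt1, the loader that is destroyed once replication starts, was called down (-0.39, SE 0.14, adjusted p = 0.035) with overlapping groups and basal library 1 at 182 CPM as its highest value; without that library it was not called (-0.14, adjusted p = 0.33), nor without any 1 of the 3 insulin libraries. The E2F letters TTTNGCGC lay in the promoter of 10 of 32 replication genes (31.2%) and of 1.6% of all genes. Of the 10, 8 were called up, beside 80% of the whole list.

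Genes of cell cycle entry changed in both directions. Among 28 tested G1 cyclins and inhibitors 10 were called up and 3 down (5 up and 2 down under the Control spread). Ccne1, the cyclin that drives entry into S phase, was at 7.66, 7.25, 6.70 and 7.68 CPM at basal and at 21.4, 20.2 and 27.4 CPM with insulin, 3.12-fold higher (adjusted p = 2.0e-07). Ccnd1 went from 340, 455, 403 and 459 CPM to 599, 629 and 580 CPM (0.54, SE 0.08, adjusted p = 5.5e-06), and Ccnd3 rose by 0.80 (SE 0.11). Cdkn1b (p27), an inhibitor of cyclin-dependent kinases, was at 189, 261, 298 and 318 CPM at basal and at 176, 179 and 191 CPM with insulin (-0.56, SE 0.11, adjusted p = 2.4e-04); basal library 1 overlapped the insulin range. Rbl2, a pocket protein that represses E2F genes, fell by 0.69 (SE 0.11). Of 40 mitotic genes 5 (12.5%) were called up and 4 (10%) down, shares near the 12.4% and 13.1% of all genes, and 1 and 0 under the Control spread, or 3 and 2 without insulin library 1 or 3; Aurka rose by 0.62 (SE 0.13) and Dlgap5 fell by 0.41 (SE 0.11).

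Of 50 interferon-stimulated genes 29 were tested, of which 5 (17.2%) were called down and 1 (3.45%) up, beside 13.1% and 12.4% of all genes (3 and 0 under the Control spread, and 3 down without insulin library 2). Ifit3b, Ifit3 and Ifit2 had the largest changes among the tested members. Ifit3 was at 38.8, 34.5, 39.5 and 28 CPM at basal and at 5.54, 6.95 and 5.34 CPM with insulin, 5.87-fold lower (adjusted p = 3.3e-12). Ifit3b was at 38.6, 37.5, 37.0 and 33.8 CPM and fell to 3.43, 5.69 and 3.46 CPM, 8.75-fold lower (adjusted p = 3.4e-14). These 2 genes are near-identical neighbours, so reads may be divided between them and they are not independent. Ifit2 fell by 1.17 (SE 0.14, adjusted p = 1.7e-07, edgeR). A further 23 tested members were not called. The letters GAAANNGAA of the interferon-stimulated response element lay in the promoter of 14 of 25 members (56.0%) and of 9.8% of all genes, and 4 of the 14 were called down. Shown are the matches nearest to the start in the 3 called members with a match and the smallest p (RefSeq, GRCm38.p6, gene strand, match in capitals, each on the opposite strand).
Ifit3b, chr19:34607803-34607851, plus strand: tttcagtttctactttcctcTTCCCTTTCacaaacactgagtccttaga
Ifit3, chr19:34583407-34583455, plus strand: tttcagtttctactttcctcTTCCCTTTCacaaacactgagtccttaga
Gbp2, chr3:142620585-142620633, plus strand: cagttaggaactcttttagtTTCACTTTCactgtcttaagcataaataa
The Ifit3 and Ifit3b stretches are letter for letter the same. Gbp2, a guanylate-binding protein of host defence, was at 10.2, 10, 8.93 and 9.64 CPM at basal and at 5.80, 3.79 and 6.92 CPM with insulin (-0.81, SE 0.23, adjusted p = 0.0089); without insulin library 2 it was not called (-0.60, adjusted p = 0.089).

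Growth factor response genes were mixed after 6 h. Of 23 tested immediate early and growth response factors 3 (13.0%) were called up and 7 (30.4%) down, or 2 and 3 under the Control spread. Egr1, induced within minutes of stimulation in many cells, was at 21.6, 18.8, 15.6 and 29.3 CPM at basal and at 8.96, 9.48 and 11.3 CPM with insulin (-1.13, SE 0.21). Myc fell from 66.6, 63.5, 71.0 and 66.6 CPM to 46.9, 38.9 and 44.6 CPM (-0.62, SE 0.12, adjusted p = 2.2e-04). The ERK-responsive factors Etv4 (1.40, SE 0.22) and Fosl1 (0.99, SE 0.19) rose. Of 15 tested ERK feedback inhibitors 5 were called up and 1 down (1 up under the Control spread). The dual-specificity phosphatase Dusp8 rose by 0.89 (SE 0.21) and Dusp6 by 0.28 (SE 0.08; not called without insulin library 2, adjusted p = 0.056), and Dusp4 fell by 0.36 (SE 0.09). Of 27 tested chemokines and NF-kB targets 3 (11.1%) were called up and 6 (22.2%) down (1 and 3 under the Control spread, 3 down without insulin library 2 and 5 up without basal library 4): Ccl2, which attracts monocytes, went from 1484, 1404, 1616 and 1475 CPM to 991, 871 and 843 CPM, and Vcam1 fell by 0.63 (SE 0.09).

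Of 37 tested autophagy genes 14 (37.8%) were called down, 4 (10.8%) up and 19 not called, and 8 were called down under the Control spread. The median was -0.17, and it was -0.06 without insulin library 1 and -0.10 without insulin library 2. Calcoco1, a receptor for autophagy of the endoplasmic reticulum, was at 92.7, 87.8, 85.6 and 84.5 CPM at basal and at 26.9, 32.5 and 40.5 CPM with insulin, 2.64-fold lower (adjusted p = 2.7e-11). Gabarap, which decorates autophagosomes, went from 783, 472, 559 and 708 CPM to 312, 307 and 281 CPM (-1.07, SE 0.12), and the cargo receptor Nbr1 fell by 0.58 (SE 0.08). Becn1, part of the kinase complex that starts autophagy, was called up (0.41, SE 0.11) with overlapping groups and not called without insulin library 1 (0.31, adjusted p = 0.052). Of 44 tested lysosomal genes 8 (18.2%) were called up and 7 (15.9%) down, not far from the 12.4% and 13.1% of all genes (3 and 4 under the Control spread, and 3 up without insulin library 1). Cathepsin Ctsf fell by 1.14 (SE 0.10, adjusted p = 5.1e-11), and the proton pump subunit Atp6v0a1 rose by 0.42 (SE 0.07).

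Redox and hypoxia-type genes rose in part. Of 30 tested NRF2 and glutathione genes 8 (26.7%) were called up and 4 down (5 up and 0 down under the Control spread, and 0 and 2 down without insulin library 2 and 3). Besides Slc7a11, Srxn1, which repairs peroxiredoxins, went from 22.1, 28.5, 30.5 and 29.5 CPM to 47.7, 50.9 and 39.3 CPM (0.73, SE 0.11). The peroxidases Gpx1 (-0.56, SE 0.18, adjusted p = 0.018) and Gpx4 (-0.45, SE 0.14, adjusted p = 0.013) were called down with overlapping groups. The Gpx1 call was lost in 4 settings that set no minimum fold, among them without basal library 1 (-0.42, adjusted p = 0.069), and the Gpx4 call in 3, among them without basal library 3 (-0.37, adjusted p = 0.054). The antioxidant response letters TGANNNNGC lay in 64.0% of 25 members and in 45.0% of all genes. Of 23 tested hypoxia-type genes 12 (52.2%) were called up and 3 (13.0%) down, or 8 and 1 under the Control spread. Egln3, a prolyl hydroxylase that marks HIF for destruction, went from 16.2, 19.5, 19.1 and 20 CPM to 52.5, 39.5 and 38.0 CPM (1.21, SE 0.13, adjusted p = 2.7e-08, edgeR).

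Transcripts of the mitochondrial genome fell in part. Of 74 tested nuclear subunits of oxidative phosphorylation 6 were called up and 5 down, both below the background shares (2 and 1 under the Control spread, 3 up without basal library 4 or insulin library 1, and 3 down without insulin library 3), and the median was -0.02. Cox7c shows how 1 library can set a value: it was at 543 CPM in basal library 1, at 108, 143 and 142 CPM in the other basal libraries and at 92.5, 54.0 and 61.0 CPM with insulin (-1.74, SE 0.36, adjusted p = 4.5e-04), and without basal library 1 at -0.91 (adjusted p = 0.0036). Of 13 tested transcripts of the mitochondrial genome 6 (46.2%) were called down and 0 up. The median was -0.39, and over the settings it ran from -0.28 (without basal library 4) to -0.68 (without insulin library 1). It was -0.30 with the GC and length trend removed, and -0.65 where at least 10 counts were required in every Control library. The complex I subunit mt-Nd6 was at 389, 291, 292 and 344 CPM at basal and at 149, 170 and 168 CPM with insulin (-1.02, SE 0.12, adjusted p = 1.1e-07), and mt-Cytb fell by 0.68 (SE 0.14). Transcripts of the mitochondrial genome took 1.32% to 2.13% of the counts in basal libraries and 1.11% to 1.44% in insulin libraries.

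The largest changes among protein-coding genes with separate groups included several outside these lists. Upward, Ereg, an epidermal growth factor receptor ligand, was at 2.55, 8, 6.95 and 7.14 CPM at basal and at 22.7, 19.0 and 32.7 CPM with insulin, 3.91-fold higher (adjusted p = 7.4e-08). Glyat, a mitochondrial glycine acyltransferase (3.44-fold), Slc16a6, a transporter of the monocarboxylate family (3.18-fold), the phosphatase and transcription cofactor Eya2 (3.15-fold), Sec24d of the COPII coat (3.09-fold) and the mannose receptor Mrc1 (3.06-fold) rose from means of at most 3.027 CPM. Ftl1-ps1, annotated as protein-coding and named as a ferritin light chain pseudogene, rose 3.29-fold. Downward, Mturn went from 62.4, 40.5, 35.5 and 39.6 CPM to 11.9, 8.53 and 8.80 CPM, 4.48-fold lower (adjusted p = 1.1e-10). N4bp2l1 (5.38-fold), the kinase-like Dclk3 (4.46-fold), the mitochondrial malic enzyme Me3 (4.23-fold), Tcp11l2 (3.79-fold) and fructosamine kinase Fn3k (3.66-fold) were lower from basal means of 4.332 to 16.73 CPM. Of 22 genes that the study names for insulin 5 passed the filter, and all 5 were called up, among them Hk2, Slc7a11, Dusp5 (1.23, SE 0.35) and Spry4 (1.59, SE 0.47). Dusp5 was not called without insulin library 2 (1.04, adjusted p = 0.065), nor Spry4 without insulin library 3 (1.45, adjusted p = 0.058). The study chose that list on these samples, so its direction is not independent evidence.

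DKD cells, which share no library with Control cells, gave a response in mostly the same direction. With insulin, 945 genes (8.31%) were called up and 908 (7.99%) down in DKD cells. Of the genes called up in Control 549 (39.1%) were called up in DKD, which is 58.1% of the genes called up there; of those called down in Control 513 (34.5%) were called down in DKD, 56.5% of the genes called down there. The sign of the log2 fold change was the same in DKD for 88.9% of the genes called up and 84.7% of those called down in Control. Those genes were selected on their Control effect. Over all tested genes the log2 fold changes in Control and DKD correlated at 0.48 (Pearson). Opposite calls were few: 4 genes called up in Control were called down in DKD, and 14 called down were called up. By list, the median log2 fold change in Control and in DKD was 0.66 and 0.64 for ATF4-type amino acid supply, 0.52 and 0.56 for cholesterol synthesis, 0.37 and 0.47 for glycolysis, 0.49 and 0.31 for DNA replication and -0.39 and -0.30 for FoxO-type genes. Of the 18 cholesterol enzymes called up in Control 16 were called up in DKD, and of the 12 FoxO-type genes called down 8 were called down. The transcripts of the mitochondrial genome stood at -0.39 in Control and 0.08 in DKD, with 6 called down in Control and none of these 6 called down in DKD. Basal levels differed here: these transcripts took 0.989% to 1.26% of the counts in DKD basal libraries and 1.32% to 2.13% in Control basal libraries. With insulin the ranges were 1.18% to 1.7% in DKD and 1.11% to 1.44% in Control. Whether the DKD basal level sets this difference was not tested.

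The test of the difference itself called 175 genes (1.54%): for 114 the DKD effect was above the Control effect and for 61 below it, and 147 of the 175 were called in Control. This count depended on single Control libraries: it was 358 without basal library 1, 90 without insulin library 2 and 111 without insulin library 3. The 5 protein-coding genes of smallest p among the 147 were all called down in Control. Deptor, an inhibitor of mTOR, went from 96.1, 102, 100 and 114 CPM to 34.3, 42.4 and 35.8 CPM in Control (-1.47, SE 0.11) and from a mean of 112.9 to 75.54 CPM in DKD (-0.58, SE 0.10), a difference of 0.89 (SE 0.15, adjusted p = 9.1e-04). Tcf7l2, an effector of Wnt signalling, went from 55.0, 46.0, 54.6 and 52.0 CPM to 24.5, 24.3 and 31.8 CPM in Control (-0.95, SE 0.12) and had a log2 fold change of 0.06 (SE 0.12) in DKD. The histone demethylase Kdm6a fell by 0.58 (SE 0.10) in Control and rose by 0.33 (SE 0.10) in DKD. Skp1a, a subunit of SCF ubiquitin ligases (-0.46 and 0.28), and Echdc2, related to enoyl-CoA hydratases (-0.52 and 0.48), likewise were called down in Control and up in DKD. Kdm6a and Skp1a also belong to the genes, described below, in which 12 basal libraries lay above the other 18, so that their Control effect and that split cannot be told apart. Basal means differed too: Kdm6a was at 143.9 CPM in Control basal and 82.95 CPM in DKD basal libraries, and Tcf7l2 at 51.89 and 35.80 CPM. In the same order Skp1a was at 472.3 and 327.6 CPM and Echdc2 at 44.24 and 25.69 CPM, whereas Deptor was at 103.1 and 112.9 CPM. With insulin Echdc2 was at 31.05 CPM in Control and 35.56 CPM in DKD. Ccnd1, called up in Control, had a log2 fold change of -0.09 (adjusted p = 0.48) in DKD, and the effects differed (-0.63, SE 0.12, adjusted p = 0.0021). Its DKD mean was 692.6 CPM at basal and 649.4 CPM with insulin, both above the Control insulin mean of 602.8 CPM.

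**Figure D3:**
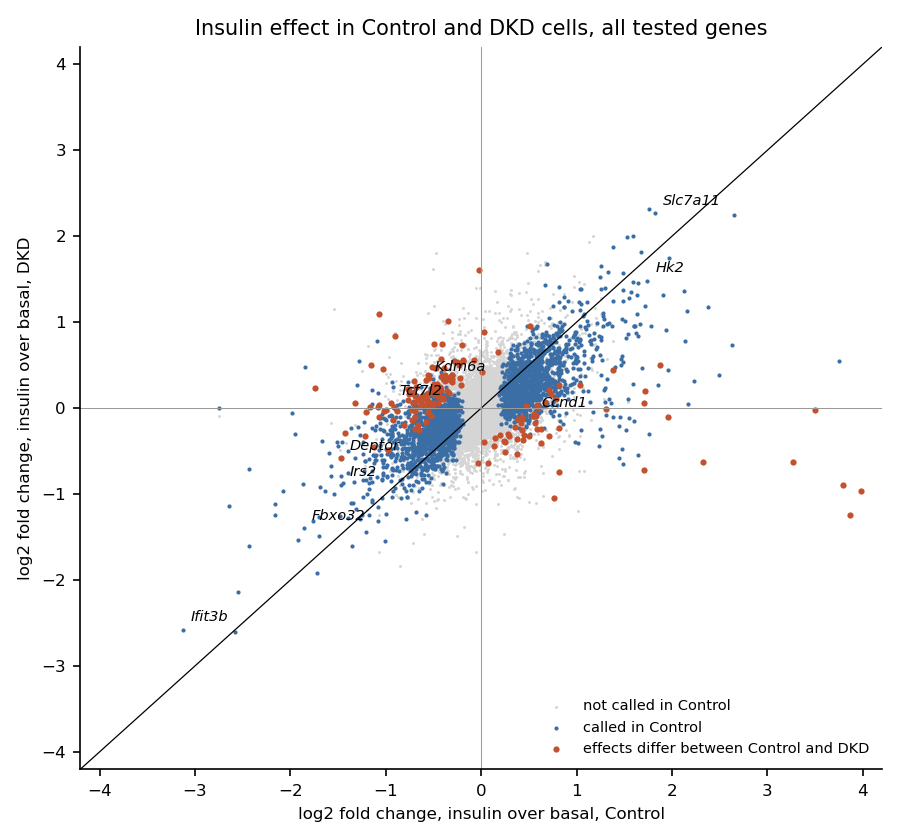
Log2 fold change with insulin in Control (horizontal) and DKD cells (vertical) for all tested genes, with genes called in Control in blue, genes whose effects differ at an adjusted p below 0.05 in red and the line of equal effect in black; 8 genes lie beyond the axes. Deptor, Tcf7l2 and Kdm6a lie above the line on the side of negative Control effects, and Irs2, Fbxo32, Hk2 and Slc7a11 lie with the same sign on both axes.

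For FoxK1 KD and FoxK2 KD cells the same test called 0 genes each with edgeR, with 1519 and 625 genes at an unadjusted p below 0.05. DESeq2 called 24 genes for FoxK1 KD and 0 for FoxK2 KD, and limma-voom called 0 for both. These counts do not show that the responses are alike.

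A further pattern moved with the Control comparison. In 52 genes every one of the 12 basal libraries of Control, FoxK1 KD and FoxK2 KD cells was lower than every one of the other 18 libraries, and in 83 genes every one was higher; DKD basal libraries fell with the insulin libraries. Of the 52 genes 10 are pseudogenes, and Rps2-ps10 was at 0 CPM in all 4 Control basal libraries and at 4.42 to 14.5 CPM in the 3 Control insulin libraries, with 4.59 to 12 CPM in DKD basal libraries. Gm42939, a transcript inside an intron, was at 0 to 0.283 CPM, 4.42 to 9.12 CPM and 4.59 to 13.1 CPM in the same 3 groups. Among the 251 pseudogenes tested in Control 55 (21.9%) were called up and 11 (4.38%) down. The genes of this pattern made up 1.76% (lower) and 2.77% (higher) of the genes called in Control. Members of the lists above among them included Ccl2, Ccng2, Gabarap, Npm1, Nr1d2 and mt-Nd6, higher in the 12, and Eno1, Krt8, Ndufs8 and Tecpr1, lower in the 12. Of the genes named for a difference between DKD and Control or for their size of change, Kdm6a and Skp1a were higher and Ftl1-ps1 was lower in the 12. No label gives a batch, and in Control cells insulin and whatever separates the 12 libraries from the 18 cannot be told apart. The DKD comparison lies wholly within the 18.

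**Figure D4:**
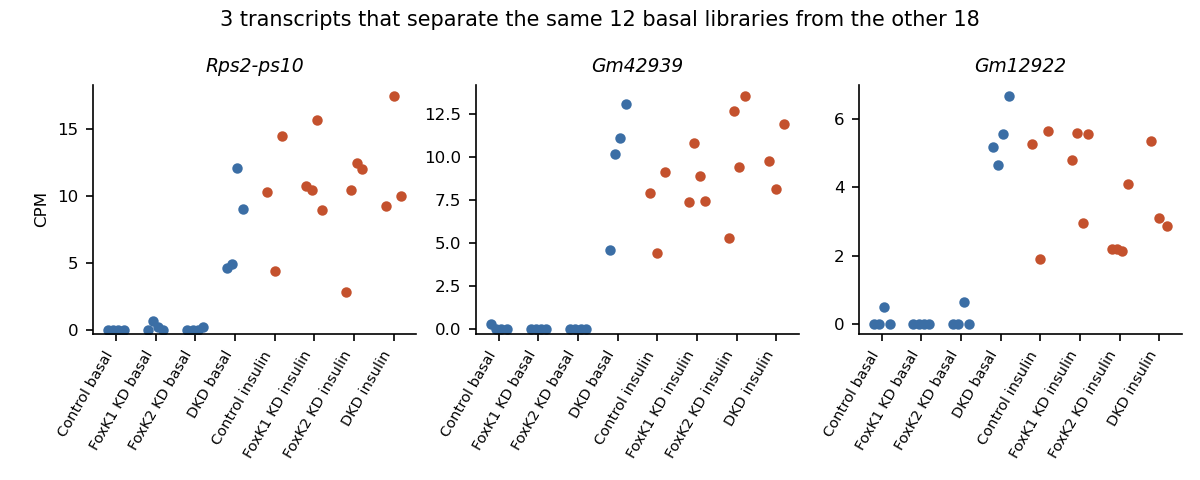
CPM of Rps2-ps10, Gm42939 and Gm12922 in all 30 libraries by group on linear axes, basal libraries in blue and insulin libraries in red. The 12 basal libraries of Control, FoxK1 KD and FoxK2 KD cells lie at or near 0, and DKD basal libraries lie among the insulin libraries, for Rps2-ps10 at 4.59 to 12 CPM.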

How the data were processed

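RNA-seq was analysed from 30 AML12 libraries. Per the labels and the study's methods, polyadenylated RNA libraries were made with an NEBNext kit; the submitters' processing notes name CASAVA 1.8, STAR 2.4.2a, featureCounts and GRCm38.p4. The annotation release and strand setting are not given in the sources used here. The authors deposited raw read counts per gene, 1 table per library, for 49089 identifiers; 48349 were found in GENCODE M21 and named from it. Genes passing filterByExpr were fitted in 1 model of 8 groups with TMM factors (edgeR 4.0.16, R 4.3.3, glmQLFTest, Benjamini-Hochberg); the SE was taken as the absolute log2 fold change over the root of the F statistic. All 30 libraries shared the spread. Alternatives used DESeq2 1.42.0 and limma 3.58.1 (voom). The fit was tested on simulated data. Promoters were from RefSeq. The comparison, gene lists, tests and naming rule were chosen with earlier results of these data known. Named genes were up to 3 per list and direction with the smallest p whose log2 CPM averaged 1 or more over the 7 libraries (prior count 2), the 10 largest changes each way without overlap, a fixed set of insulin and forkhead genes, the genes the study names, the 5 genes of smallest p for the difference from DKD, and genes whose promoter is shown. Hmgcs1, Ebp, Ggps1, Pcx, Pck2, Mdh1, Eno1, the marker genes and the transcripts of the split into 12 and 18 libraries were named after their values were seen. Some genes are not reported here. Depth per library was 2141460 to 5668270 counts; limits given for counts of 0 cover counting error only.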

Additional observations from a re-analysis of the deposited data

Results flagged for a closer look

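In 21 cases 1 of the 4 Control basal libraries lay far from the other 3 for a named gene (Dixon's test); chance flags about 1 group in 20, and 179 named genes were examined. In 10 of the 21 the library was basal 1. It was the highest for Foxo3 (324 CPM), Ccng2 (439 CPM), Vcam1 (351 CPM), Becn1 (180 CPM), Cox7c (543 CPM), Cox5a (253 CPM), Dbp (26.7 CPM), Col18a1 (799 CPM) and Sox9 (296 CPM), and the lowest for Rbl2 (75.4 CPM). Basal library 4 was the highest for Irs2 (213 CPM, the others 170 to 176 CPM) and Mbtps2 (115 CPM). It was the lowest for Trib3 (8.39 CPM), Acadm (110 CPM), Mcm3 (155 CPM) and Hspa5 (423 CPM). Basal library 3 was the highest for Aldh18a1 (59.8 CPM) and Atp6v1h (176 CPM) and the lowest for Fosl1 (5.95 CPM) and Bhlhe40 (192 CPM). Basal library 2 was the highest for Dclk3 (10.3 CPM).

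The insulin effect differed between DKD and Control cells for 19 of the named genes reported here (adjusted p of the difference, edgeR). The difference, DKD minus Control on the log2 scale, was positive for Kdm6a (0.91), Skp1a (0.73), Deptor (0.89), Tcf7l2 (1.01) and Echdc2 (1.0). It was also positive for the vascular adhesion molecule Vcam1 (0.68, adjusted p = 0.0015), the chemokine Ccl2 (0.89, adjusted p = 0.0046), Gabarap (0.97, adjusted p = 0.001), the thioesterase Acot2 (1.0, adjusted p = 0.048), Derl2 of protein export from the endoplasmic reticulum (0.69, adjusted p = 0.016) and ribosomal protein Rpl37a (0.89, adjusted p = 0.0015). Among respiratory chain genes it was positive for mt-Nd6 (0.98, adjusted p = 0.0015), mt-Nd5 (0.76, adjusted p = 0.032), Uqcrfs1 (0.66, adjusted p = 0.023) and Cox7c (1.97, adjusted p = 0.042). It was negative for Ccnd1 (-0.63), Ndufs8 (-0.76, adjusted p = 0.048), keratin Krt8 (-0.60, adjusted p = 0.043) and Ftl1-ps1 (-1.52, adjusted p = 0.0096). Kdm6a, Skp1a, Ccl2, Gabarap, mt-Nd6, Krt8, Ndufs8 and Ftl1-ps1 are also among the genes that separate the 12 libraries from the 18.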

How the results depend on the processing

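For the 179 named genes 20 alternative settings gave 3560 values, of which 3265 kept direction and side of the threshold, 290 lost the call, 5 gained it and 0 reversed. Fitted on the 7 Control libraries alone, with filter, scaling and spread redone, 577 genes were called up and 508 down. A threshold of 0.25 with a fold above 1.5, the study's rule, gave 691 up and 676 down, 459 differences for DKD and 176 for FoxK1 KD; a threshold of 0.05 with that fold gave 532 and 527. DESeq2 called 24 differences for FoxK1 KD. Leaving out 1 Control library at a time gave 1141 to 1486 genes up, 1063 to 1514 down, 90 to 358 differences for DKD, 0 to 25 for FoxK1 KD (25 without basal library 2) and 0 for FoxK2 KD. Upper-quartile scaling moved the median of all genes by 0.02 and called 1565 up and 1328 down. The median log2 fold change changed sign under at least 1 setting for gluconeogenesis, oxidative phosphorylation, insulin signalling, hepatocyte transcription factors (from -0.14 to 0.03 with GC and length removed and the block), the circadian clock (from -0.15 to 0.01 without insulin library 3), snoRNA hosts, and the hepatocyte, cholangiocyte and macrophage markers (the last from -0.84 to 0.03 with at least 10 counts in every Control library). The causes were not tested.

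With the replicate number as a block, 1322 genes were called up, 1388 down and 138 differed for DKD. The deviations of same-numbered Control libraries correlated at 0.0723, 0.0641 and 0.0736, and insulin library 3 correlated best with basal library 2, so the numbers were not taken to pair the libraries.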

Other observations

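Clock genes changed in both directions in Control cells. Of 17 tested genes 4 (23.5%) were called up and 4 (23.5%) down, beside 12.4% and 13.1% of all genes. Arntl (Bmal1), a core activator of the clock, went from 7.37, 8.75, 7.69 and 11.1 CPM at basal to 18.7, 18 and 13.2 CPM with insulin (adjusted p = 5.4e-04, edgeR), and the repressor Nfil3 from 14.5, 12.2, 16.1 and 12.5 CPM to 29.8, 24.3 and 27.7 CPM (adjusted p = 2.8e-06). Dbp, an output factor of the clock, fell from 26.7, 14.8, 16.4 and 16.2 CPM to 6.59, 9.48 and 5.66 CPM (adjusted p = 2.9e-06), and Nr1d2 fell from 137, 134, 128 and 137 CPM to 68.0, 60.7 and 69.8 CPM. The groups were separate in these 4 genes. The labels do not give the hour of harvest.

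Secreted proteins changed in part. Of 16 tested plasma proteins 5 (31.2%) were called up and 1 (6.25%) down, beside 12.4% and 13.1% of all genes. With the spread of the 7 Control libraries alone 3 were called up. The heme carrier Hpx rose by 0.75 (adjusted p = 2.6e-06, edgeR), and Serpina1b, an antitrypsin, fell by 0.71 (adjusted p = 0.0023). Of 23 tested matrix genes 6 (26.1%) were called up and 2 (8.7%) down (3 and 0 with that spread). Fibronectin Fn1 went from 50.8, 84.0, 71.7 and 79.8 CPM to 88.6, 128 and 135 CPM (adjusted p = 2.9e-04, edgeR). Of 17 tested hepatocyte transcription factors 1 (5.88%) was called up and 2 (11.8%) down, both below the shares of all genes. Of 11 snoRNA host transcripts edgeR and DESeq2 called 0, with 0 at an unadjusted p below 0.05. Gpnmb, a transmembrane glycoprotein chosen after its values were seen, had 0 counts in all 4 basal libraries and 4.22, 1.58 and 2.52 CPM in the insulin libraries. Having been chosen this way, it is given without a p-value, and its levels rest on few reads at this depth.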
